A study of Mus musculus with 6 samples.

Results

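Claudins are the membrane proteins of the tight junction, the seal at the apical edge of the lateral membrane that controls what passes between epithelial cells. The genes described here are the 23 numbered mouse claudin genes (Cldn followed by a number, protein-coding in GENCODE) and 13 further genes of the tight junction and of the apical polarity machinery, chosen by name, 36 of the 49585 genes listed in the count files. They were measured by RNA-seq in 6 libraries of mouse intestinal adenoma cells grown as tumoroids, 3 per genotype. Both genotypes were on the C57BL/6 strain and carried the APC min/+ allele, which predisposes to intestinal adenomas, and Villin-Cre, a recombinase driven by a promoter of the gut epithelium. The libraries called KO here were IKKa FL/FL, with both copies of Chuk, the gene of the kinase IKKa, open to deletion by Cre, and the libraries called WT were IKKa +/+. All cultures were kept in Matrigel drops in a medium with N2, B27, Noggin, R-spondin, EGF, basic FGF and the ROCK inhibitor Y27632, so both genotypes met an agent that relaxes the actomyosin attached to junctions. The labels give no age or sex, and they call the libraries biological replicates without saying whether these came from separate animals or cultures. The p-values therefore measure the spread between these libraries only.

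In the tight junction, some claudins tighten the seal and others form pores for ions and water, so the mix of claudins in a cell sets how leaky and how selective the epithelium is. Occludin and its relatives sit beside them, and the ZO proteins and cingulins tie the strands to actin. The position of the belt, and the apical surface above it, are set by the PAR and Crumbs complexes. Gut epithelium is known for claudins that change along its length and from crypt to surface, with a leaky small intestine and a tighter colon.

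The libraries held 20749747 to 31875723 counts. Chuk was at 28.9, 24.4 and 34.9 CPM (read counts scaled to a common library size with TMM factors) in the 3 KO libraries and at 101, 106 and 95.8 CPM in the WT libraries, a 3.42-fold lower level (adjusted p = 8.6e-08, edgeR's quasi-likelihood test with Benjamini-Hochberg adjustment over the 13759 genes tested, as for every adjusted p below). A gene is called changed at an adjusted p under 0.05, and 57.4% of the genes tested were called, 30.4% higher and 27.0% lower in KO, with a median log2 fold change of 0.00 over all genes tested. KO replicate 2 stood apart from the other KO libraries, with a chi-square per degree of freedom of 39.4 and 40.0 against them where those libraries differed from each other by 5.80. Transcripts of the sex chromosomes divided by genotype as well, Xist being at 858 to 1483 CPM in WT and under 0.1 CPM in KO. The Y-linked genes Ddx3y and Eif2s3y had 4502 and 7164 counts in KO and 0 in WT. The 685 well-expressed genes of chromosome 5 had a median log2 difference 0.43 above that of the other autosomes. These differences cannot be told apart from the Chuk genotype. All 8 epithelial markers examined were present, including Epcam, Cdh1, Vil1 and Krt19, with a summed level of 10364 to 12125 CPM in KO and 8024 to 8671 CPM in WT. Of these, 3 keratins (Krt8, Krt18 and Krt19) rose and carried the sum, while Elf3, Epcam, Vil1 and Esrp1 fell 3.11-fold, 2.22-fold, 1.85-fold and 1.15-fold and Cdh1 did not pass the test; their part in the junction gene differences was not tested.

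The claudin genes moved mainly downward. Of the 23 claudins, 9 had enough counts to be tested; 7 of these fell in KO, 1 rose and 1 did not pass the test, so 88.9% of the tested claudins were called against 57.4% of all genes. The median log2 fold change of the tested claudins was -0.49. At 2-fold or more, 3 claudins were lower and 0 were higher, against 9.83% and 15.2% of all genes tested. The KO and WT values did not overlap in 8 of the 9, against 63.1% of all genes tested. The counts were again 7 lower and 1 higher without KO replicate 2, where 61.5% of all genes were called. In a bulk sample, fewer cells of a type and less RNA per cell cannot be told apart.

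**Figure D1:**
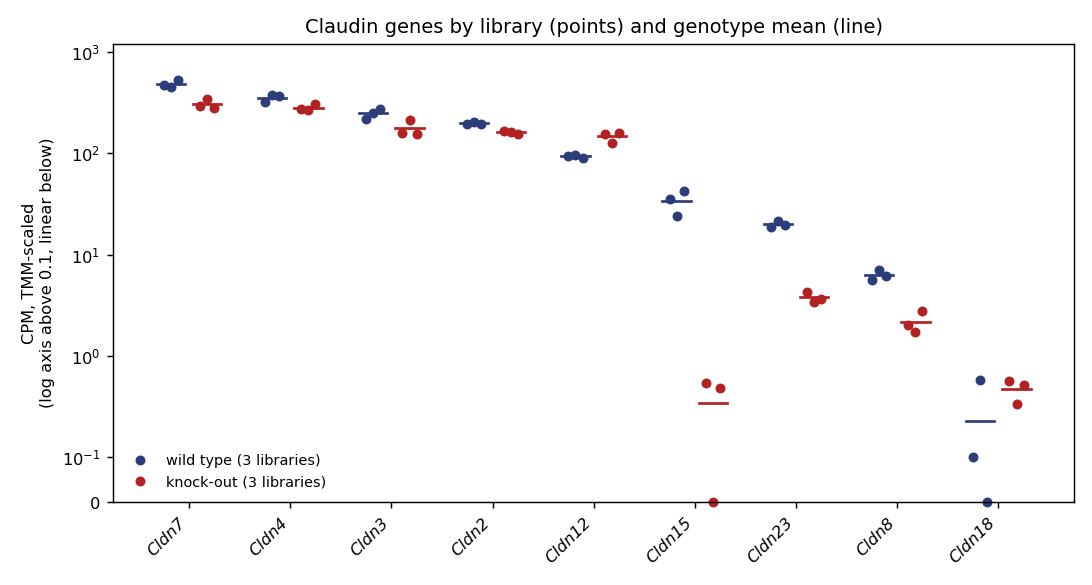
Level of the 9 tested claudins in each library, in CPM on an axis that is linear near 0 and logarithmic above. Each point is 1 library and each short line the mean of the 3 libraries of a genotype. Cldn12 is the claudin whose KO libraries all sit above the WT libraries, and Cldn15 shows the widest gap, from 24.1 to 42.4 CPM in WT down to under 1 CPM in KO.

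Cldn15, a pore-forming claudin that carries sodium across the small intestine (chromosome 5, 136966616 to 136975858, plus strand, GRCm38), was all but lost. It was at 35.3, 24.1 and 42.4 CPM in the WT libraries and at 0.537, 0 and 0.484 CPM in the KO libraries. Every KO value lay far below every WT value, and KO replicate 2 held no Cldn15 count at all. The sums were 32 counts in KO and 2693 in WT, a 94.5-fold lower level (log2 fold change -6.56, SE 0.71, adjusted p = 2.5e-08). With so few KO counts the size of this fall depended on the method: it was -7.51 on the log2 scale with limma voom and -6.08 without KO replicate 2.

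Cldn2, the other pore-forming claudin tested, makes channels for cations and water and is typical of crypts and leaky epithelia (chromosome X, 139800828 to 139811386, plus strand). It was at 166, 161 and 156 CPM in KO and at 195, 203 and 193 CPM in WT. Each genotype was tight and the groups did not overlap. The fall was small, 1.22-fold (log2 fold change -0.29, SE 0.07, adjusted p = 0.0034). The 302 well-expressed genes of chromosome X had a median log2 fold change of -0.09, and 37.7% of them lay below Cldn2. Its place on X, and Xist in WT only, stand beside that value, and their part in it was not tested.

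Of the 12 claudins listed as sealing, 5 were tested and 4 of these fell, Cldn7, Cldn3, Cldn4 and Cldn8, with Cldn18 not passing the test. The first 3 were the most abundant claudins and fell by modest amounts. Cldn7, which seals epithelia and also sits along the lateral membrane with Epcam (chromosome 11, 69964779 to 69967885, plus strand), was at 477, 449 and 533 CPM in WT and at 290.3, 346 and 283 CPM in KO. The highest KO library stayed under the lowest WT library, and the level was 1.59-fold lower (log2 fold change -0.67, SE 0.09, adjusted p = 7.2e-05). Epcam, the binding partner of Cldn7, was at a mean of 412 CPM in KO and 915 CPM in WT.

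Cldn3 and Cldn4, sealing claudins that are neighbours on chromosome 5 with 39279 bases between them, fell to similar extents. Cldn3 (134986214 to 134987472, plus strand) was at 159, 214 and 156 CPM in KO and at 218, 249 and 277 CPM in WT, 1.40-fold lower (log2 fold change -0.49, SE 0.12, adjusted p = 0.0049). Its KO replicate 2 came close to the lowest WT library without crossing it. Cldn4 (134945119 to 134946934, minus strand) was at 274, 269 and 304 CPM in KO and at 320.4, 374 and 369.5 CPM in WT, 1.26-fold lower (log2 fold change -0.33, SE 0.08, adjusted p = 0.0049). Cldn13, 29592 bases from Cldn4 on the side away from Cldn3, had no count in any library. Both genes went against the trend of their chromosome, since 6.57% of the 685 chromosome 5 genes lay below Cldn3 and 8.76% below Cldn4.

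Larger falls were seen in less abundant claudins. Cldn23, a claudin of the surface cells of gut epithelium (chromosome 8, 35824712 to 35826559, minus strand), was at 18.6, 21.7 and 19.6 CPM in WT and at 4.30, 3.41 and 3.68 CPM in KO. The KO libraries lay close together and well below WT, 5.20-fold lower (log2 fold change -2.38, SE 0.17, adjusted p = 1e-07). Cldn8, a sealing claudin of the distal colon and kidney tubule (chromosome 16, 88560828 to 88563183, minus strand), was at 5.66, 7.12 and 6.09 CPM in WT and at 2.02, 1.72 and 2.78 CPM in KO. The groups did not overlap, and the level was 2.84-fold lower (log2 fold change -1.50, SE 0.25, adjusted p = 0.0002).

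Cldn12 was the claudin that rose. It is an unusual claudin without the tail that binds ZO proteins, and it has been linked to paracellular calcium (chromosome 5, 5489537 to 5514958, minus strand). It was at 156, 128 and 159 CPM in KO and at 93.3, 97.3 and 89.0 CPM in WT. All KO libraries were above all WT libraries, 1.59-fold higher (log2 fold change 0.66, SE 0.09, adjusted p = 7.4e-05). Cldn12 shares chromosome 5 with the genes whose median stood 0.43 above the other autosomes; its log2 fold change was 0.27 above the median of the chromosome, and 67.7% of the chromosome's genes lay below it. The part of that shift in the rise was not tested.

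The remaining claudins were at or near the detection limit, which is 3 counts and corresponds to 0.0180 CPM over all 6 libraries. Cldn18, a claudin of stomach and lung named here after its values were seen, had 18, 9 and 16 counts in KO and 3, 12 and 0 counts in WT. WT replicate 2 reached the KO range, and the difference did not pass the test (log2 fold change 1.29, 95% interval -0.71 to 3.29, adjusted p = 0.22); without that library it did (log2 fold change 3.09, adjusted p = 0.031). Cldn6, Cldn9, Cldn10, Cldn17 and Cldn19 had a few counts and were not tested: the 6 counts of Cldn19 were all in KO replicate 2, and Cldn9 had 10 counts in KO and 4 in WT. Cldn1 of the epidermal barrier and Cldn5 of endothelium had no count in any library, nor had Cldn11, Cldn13, Cldn14, Cldn16, Cldn20, Cldn22 and Cldn24.

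Markers of other epithelia and cell types moved with genotype beside these claudins. Of 8 squamous markers, 7 were tested and all 7 rose, where 30.4% of all genes tested were called higher. The summed level went from between 77.6 and 92.2 CPM in WT to between 2214 and 2502 CPM in KO. Trp63, a defining squamous factor, was not tested, with 2 counts in KO and 5 in WT. Of 8 gastric markers, Tff1 and Tff2 rose and Atp4a fell, with Gkn2, Muc6 and Gif at 0 in all libraries; the sum was 259 to 415 CPM in KO and 7.87 to 12.1 CPM in WT. Their part in the claudin differences was not tested. Endothelial markers summed to 5.88 to 8.18 CPM in KO and 25.4 to 29.3 CPM in WT. Tek and Vwf fell, Esam did not pass the test (adjusted p = 0.41), Tie1 had 27 counts in KO and 0 in WT, Pecam1 and Cdh5 had at most 7 counts per genotype, and Kdr and Emcn were at 0. Fibroblast markers stayed under 1 CPM in sum in every library, with Col3a1, Pdgfrb, Dcn and Lum at 0. Among them Col1a1 rose, with 59 counts in KO and 2 in WT (adjusted p = 0.0022), while Pdgfra had 0 counts in KO and 13 in WT. Muscle and glial markers summed to 1.35 to 1.94 CPM in KO and 10.99 to 19.3 CPM in WT, with Sox10 at 0.

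To compare levels between claudins, CPM were divided by the exonic length of each gene. In WT the order by CPM per kilobase was Cldn7 at 249.6 ± 21.9 (SD, n = 3), Cldn3 at 197 ± 23.3, Cldn4 at 195 ± 16.4, Cldn2 at 59.3 ± 1.59, Cldn12 at 22.1 ± 0.983, Cldn15 at 16.0 ± 4.34, Cldn23 at 10.8 ± 0.869 and Cldn8 at 2.67 ± 0.318. Cldn3 and Cldn4 did not differ beyond their spread. In KO the leading 3 were closer together, Cldn7 at 157 ± 17.8, Cldn4 at 155 ± 10.4 and Cldn3 at 140.2 ± 26.0 CPM per kilobase, with no difference beyond the spread among them, followed by Cldn2 at 48.4 ± 1.47 and Cldn12 at 34.9 ± 4.13.

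Summed over all claudins with any count, the level per kilobase was 517, 577 and 524 in the KO libraries and 704, 744 and 809 in the WT libraries. The KO total was below the WT total in every library. Cldn7 was 33.2 ± 1.97% of it in WT and 29.1 ± 1.58% in KO, Cldn3 was 26.1 ± 1.35% and 25.9 ± 3.16%, and Cldn4 was 26.0 ± 1.48% and 28.9 ± 3.14%. Cldn12 went from 2.94 ± 0.296% to 6.52 ± 1.12%, and Cldn15 from 2.12 ± 0.516% to 0.0308 ± 0.0268%. Together Cldn2, Cldn3, Cldn4, Cldn7 and Cldn12 made up 96.1 ± 0.340% of the claudin total in WT and 99.4 ± 0.129% in KO. These shares carry no test.

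**Figure D2:**
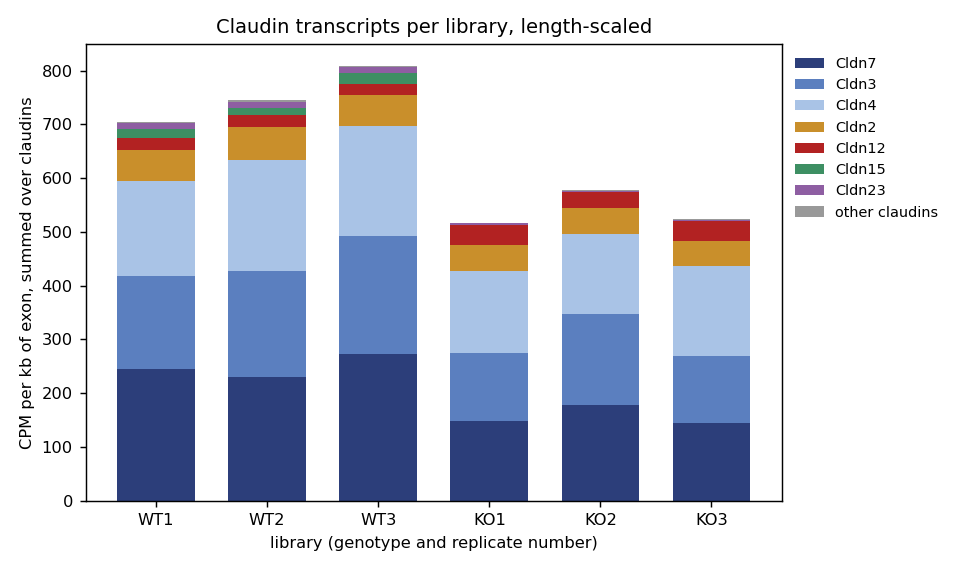
Claudin level per kilobase of exon in each library, stacked by gene (vertical axis, CPM per kilobase, starting at 0). The 3 KO columns reach 517 to 577 and the 3 WT columns 704 to 809, with Cldn7, Cldn3 and Cldn4 filling most of each.

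The stretch before the transcription start is printed for members whose RNA moved in different ways, 250 bases in each case, from RefSeq on GRCm38.p6, on the strand of the gene. These are Cldn15 as the claudin with the greatest fall (chr5:136967619-136967868, plus strand, a start inside the gene 1253 bases from the GENCODE 5′ end, with 25 bases in an exon), Cldn7 as the most abundant (chr11:69964529-69964778, plus strand), Cldn12 as the one that rose (chr5:5514977-5515226, minus strand), and Cldn4 (chr5:134946935-134947184, minus strand) and Tjp3 (chr10:81291582-81291831, minus strand) as members that fell and hold the E-box CACCTG at this start, the letters read by Snail-type repressors of junction genes. Capitals mark that E-box on either strand.
Cldn15: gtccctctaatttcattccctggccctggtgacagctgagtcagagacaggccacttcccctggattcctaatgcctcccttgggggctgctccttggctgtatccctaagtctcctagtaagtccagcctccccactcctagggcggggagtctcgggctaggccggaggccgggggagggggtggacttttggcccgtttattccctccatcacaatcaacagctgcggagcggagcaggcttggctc
Cldn7: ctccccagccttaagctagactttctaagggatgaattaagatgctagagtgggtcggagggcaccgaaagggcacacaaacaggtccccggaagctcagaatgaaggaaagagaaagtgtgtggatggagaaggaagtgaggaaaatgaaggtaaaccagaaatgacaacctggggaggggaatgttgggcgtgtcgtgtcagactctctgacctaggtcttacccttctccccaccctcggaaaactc
Cldn12: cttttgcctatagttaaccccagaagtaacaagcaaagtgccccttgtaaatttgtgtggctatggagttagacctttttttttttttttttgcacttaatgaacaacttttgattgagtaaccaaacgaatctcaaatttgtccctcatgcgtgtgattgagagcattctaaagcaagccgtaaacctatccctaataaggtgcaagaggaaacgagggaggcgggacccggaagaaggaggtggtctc
Cldn4: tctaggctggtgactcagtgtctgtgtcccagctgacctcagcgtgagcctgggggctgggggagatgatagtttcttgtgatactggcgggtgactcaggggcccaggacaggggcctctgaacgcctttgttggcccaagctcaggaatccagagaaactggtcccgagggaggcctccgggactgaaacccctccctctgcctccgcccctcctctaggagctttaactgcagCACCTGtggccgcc
Tjp3: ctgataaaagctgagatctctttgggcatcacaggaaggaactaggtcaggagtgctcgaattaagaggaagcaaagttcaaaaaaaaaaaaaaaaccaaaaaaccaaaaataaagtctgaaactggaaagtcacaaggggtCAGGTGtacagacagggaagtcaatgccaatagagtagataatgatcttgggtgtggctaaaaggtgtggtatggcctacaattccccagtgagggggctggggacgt

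RefSeq promoters were found for 30 of the 36 members, with 45 start sites in all, the others being Cldn8, Cldn9, Cldn13, Cldn23, Jam3 and Marveld3. Each start gave 1 window, and windows of close starts of a gene overlap. CACCTG, searched on both strands, was in 13 of the 45 windows (28.9%) and in 17.2% of all 32851 RefSeq windows of the same length. The 13 windows belong to 11 members: Cldn4, Cldn7, F11r, Ocln and Tjp3, which fell, Crb3 and Pard3, which rose, Pard6b and Patj, which did not pass the test, and Cldn6 and Cldn14, which were not tested. In the window of the start nearest to the GENCODE 5′ end, 7 of the 30 members held it (23.3%); those of Cldn7, Ocln, Pard3 and Cldn14 were at other starts. TATAAA was in 4 of the 45 windows (8.89%; Cldn2, Marveld2 and Pard3), against 12.4% of all. CTTTGAT (TCF/LEF) was in 1 window, at a second start of Cldn18 (2.22%), against 3.21% of all. CAAAGTC (HNF4), TTTATGG (CDX) and an NF-kB motif were in 0 of the 45, against 3.84%, 2.43% and 1.21% of all; CTTTGAT and CAAAGTC share the letters CAAAG on opposite strands. A missing motif says only that its letters are not in these windows. The median GC content was 57.2% in the members' windows and 52.4% in all.

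Of the 13 junction and polarity members, 12 were tested; 5 fell, 4 rose and 3 did not pass the test (75.0% called, against 57.4% of all genes), with a median log2 fold change of 0.00. At 2-fold or more, Ocln and Tjp3 were lower and Cgnl1 higher.

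**Figure D3:**
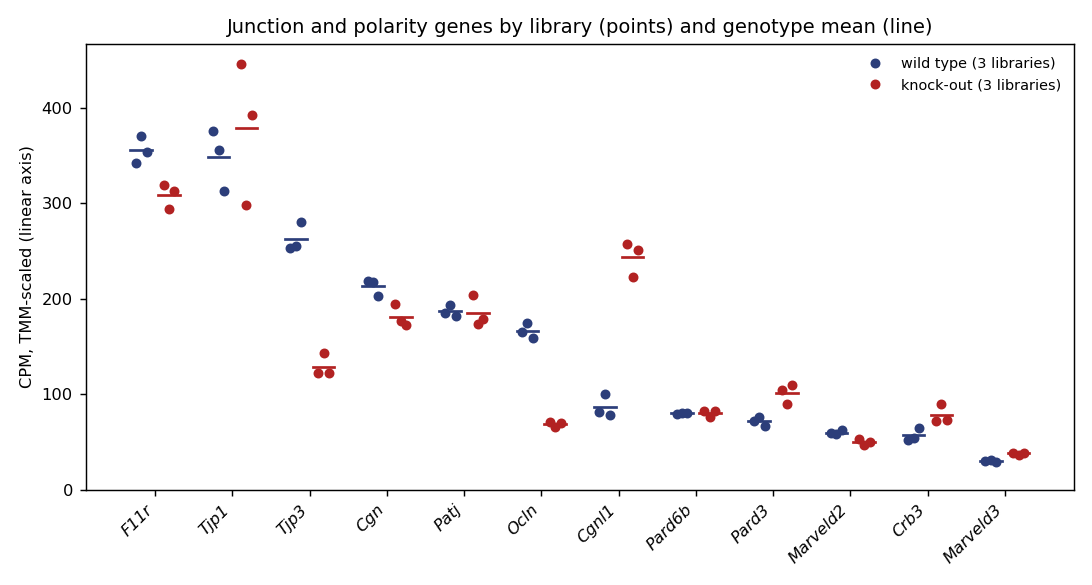
Level of the 12 tested junction and polarity members in each library (CPM, linear axis starting at 0). Points are libraries and short lines the means of 3; Ocln and Tjp3 show KO points far below WT, Cgnl1 shows them far above, and in Tjp1, Pard6b and Patj the genotypes overlap.

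The membrane proteins of the junction beside the claudins went in both directions. Ocln, encoding occludin (chromosome 13, 100496507 to 100552718, minus strand), was at 165, 174 and 159 CPM in WT and at 71.1, 65.2 and 69.7 CPM in KO. The libraries of each genotype lay close together, and the level was 2.41-fold lower (log2 fold change -1.27, SE 0.08, adjusted p = 3.8e-08). Marveld2, encoding tricellulin of the corners where 3 cells meet, lies 43238 bases from Ocln on the same strand (100595957 to 100616971). It was at 52.8, 46.9 and 50.2 CPM in KO and at 58.9, 57.9 and 62.3 CPM in WT, without overlap but with a much smaller difference (log2 fold change -0.26, SE 0.09, adjusted p = 0.024).

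Marveld3, the other relative of occludin (chromosome 8, 109947914 to 109962203, minus strand), rose. It was at 38.4, 36.5 and 38.5 CPM in KO and at 30.2, 30.5 and 28.9 CPM in WT. The groups did not overlap, and the level was 1.27-fold higher (log2 fold change 0.34, SE 0.09, adjusted p = 0.0077). F11r, encoding the adhesion molecule JAM-A (chromosome 1, 171437535 to 171464603, plus strand), was at 319, 294 and 313 CPM in KO and at 342, 371 and 354 CPM in WT. Its fall was small (log2 fold change -0.20, SE 0.07, adjusted p = 0.027). Jam3, encoding the related JAM-C, had no count in any library.

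The falls of Marveld2 and F11r, and that of Cgn below, were not called when some single libraries were left out. Without KO replicate 3 their adjusted p-values were 0.068, 0.065 and 0.092. F11r was also lost without WT replicate 2 or 3 (0.11 and 0.062), Marveld2 without WT replicate 1 or 3 (0.054 and 0.090) and Cgn without WT replicate 1 or 2 (0.071 and 0.067). The number of falls among the 13 members was thus 2 without KO replicate 3 (50.1% of all genes called) and 3 without WT replicate 1, 2 or 3 (50.6%, 52.1% and 51.2%).

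Among the scaffolds, the ZO genes parted. Tjp3, encoding ZO-3 (chromosome 10, 81273207 to 81291581, minus strand), was at 253, 255 and 281 CPM in WT and at 122, 143 and 122 CPM in KO, 2.04-fold lower with no overlap (log2 fold change -1.03, SE 0.085, adjusted p = 6.4e-07). Tjp1, encoding ZO-1, the scaffold on which claudin strands form (chromosome 7, 65296165 to 65527781, minus strand), was at 446, 298 and 392 CPM in KO and at 376, 356 and 312.5 CPM in WT. KO replicate 2 was the lowest of all 6 libraries, and the groups overlapped. The difference did not pass the test (log2 fold change 0.12, 95% interval -0.16 to 0.40, adjusted p = 0.44); without KO replicate 2 it did, at a log2 fold change of 0.24 (adjusted p = 0.014).

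The cingulins also parted. Cgnl1, encoding paracingulin, a scaffold of tight and adherens junctions (chromosome 9, 71626509 to 71771602, minus strand), was at 257, 223 and 251 CPM in KO and at 81.3, 100.4 and 78.6 CPM in WT. All KO libraries were above all WT libraries, 2.82-fold higher (log2 fold change 1.49, SE 0.10, adjusted p = 1e-07). Cgn, encoding cingulin, its tight junction relative (chromosome 3, 94760069 to 94786492, minus strand), was at 194, 177 and 172 CPM in KO and at 218, 218 and 203 CPM in WT (log2 fold change -0.24, SE 0.08, adjusted p = 0.019). Per kilobase, Cgn was at 35.4 ± 1.42 and Cgnl1 at 11.1 ± 1.52 CPM in WT, while in KO they were at 30.1 ± 1.94 and 31.1 ± 2.30 and did not differ beyond their spread.

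Among the polarity members, Pard3, the scaffold of the PAR complex that marks the forming junction (chromosome 8, 127063893 to 127612286, plus strand), rose. It was at 104, 89.6 and 109 CPM in KO and at 72.3, 75.5 and 66.8 CPM in WT. The groups did not overlap, and the level was 1.41-fold higher (log2 fold change 0.50, SE 0.09, adjusted p = 0.00066). Crb3, the small membrane protein of the epithelial Crumbs complex (chromosome 17, 57059105 to 57065918, plus strand), rose 1.37-fold, from 52.3, 53.6 and 65.0 CPM in WT to 72.3, 90.0 and 73.1 CPM in KO (log2 fold change 0.46, SE 0.11, adjusted p = 0.0043).

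Their partners gave no call. Pard6b, the adaptor that joins PAR-3 to atypical protein kinase C (chromosome 2, 168081004 to 168101203, plus strand), was at 82.4, 76.1 and 82.4 CPM in KO and at 78.8, 80.4 and 80.3 CPM in WT, a log2 fold change of 0.01 with a 95% interval from -0.16 to 0.18 (adjusted p = 0.93). Patj, the multi-domain scaffold of the Crumbs complex (chromosome 4, 98395785 to 98719603, plus strand), was at 204, 173 and 178 CPM in KO and at 185, 193 and 182 CPM in WT, a log2 fold change of -0.01 with a 95% interval from -0.19 to 0.16 (adjusted p = 0.90). In both genes the KO libraries lay on either side of the WT libraries.

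**Figure D4:**
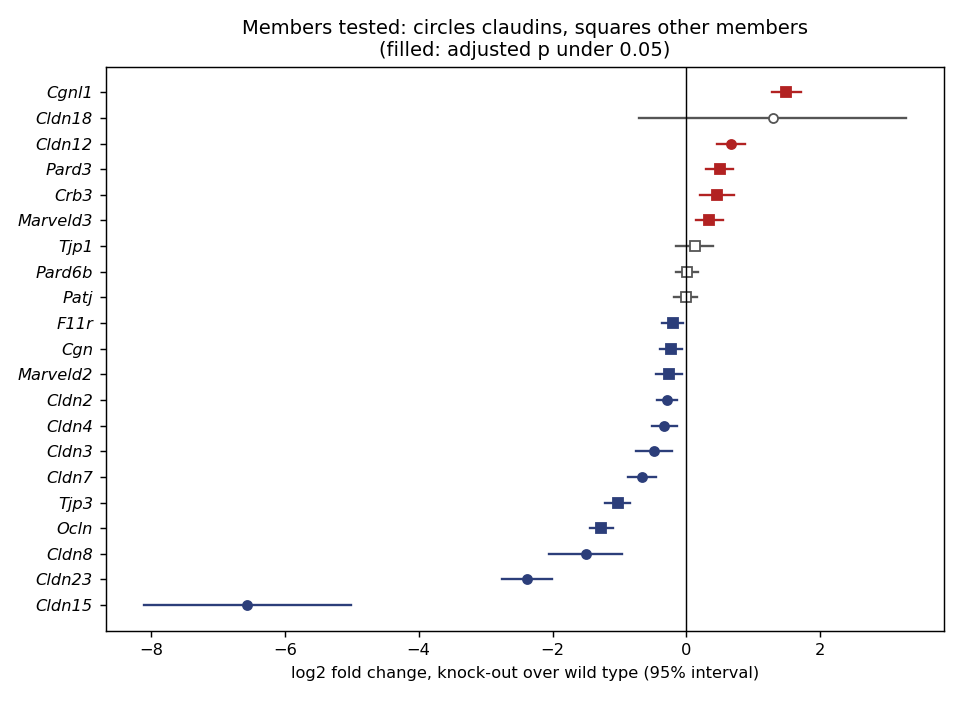
Log2 fold change of KO over WT for the 21 tested members with 95% intervals (circles, claudins; squares, other members; filled symbols, adjusted p under 0.05), in order of value. The values run from -6.56 for Cldn15 to 1.49 for Cgnl1, and the intervals of Cldn18, Tjp1, Pard6b and Patj cross 0.

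Of the 54 other genes of junctions and polarity that were listed, 49 were tested; 18 rose, 17 fell and 14 did not pass the test (71.4% called, against 57.4% of all genes, 30.4% higher and 27.0% lower), with a median log2 fold change of 0.06, also with the genes that had no WT count set at their lower bound. Without KO replicate 2 the counts were 19 and 17, with 61.5% of all genes called. Leaving out any other single library gave 14 to 16 higher and 13 to 16 lower, with 50.1% to 52.1% of all genes called. Junction membrane proteins held the widest differences, with 5 higher and 5 lower of 12 tested (83.3% called, against 57.4% of all genes). Jaml, a junctional adhesion molecule relative through which epithelium and leukocytes interact, was at 117, 118 and 130 CPM in WT and at 0.600, 1.12 and 0.743 CPM in KO, a 149.9-fold lower level (log2 fold change -7.23, SE 0.25, adjusted p = 7.4e-12). Leukocyte markers went both ways: Cd68, Csf1r and Ptprc rose, Itgam had 8 counts in KO and 46 in WT, Lyz2 had 0 and 19, and Cd3e and Tyrobp were among those at 0. Their sum was 23.1 to 23.7 CPM in KO and 3.72 to 6.98 CPM in WT, and their part in the fall of Jaml was not tested.

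The angulins, which recruit tricellulin to the corners between cells, had members on both sides. Lsr, the most abundant, changed least, at 522, 568 and 487 CPM in KO and at 419, 423 and 486 CPM in WT. It was 1.19-fold higher (log2 fold change 0.25, SE 0.09, adjusted p = 0.026). This call was lost in several alternatives, among them without KO replicate 2 (adjusted p = 0.056). Ildr1 was at 62.3, 75.7 and 67.4 CPM in WT and at 3.38, 2.28 and 2.29 CPM in KO, 25.5-fold lower (log2 fold change -4.67, SE 0.19, adjusted p = 2.1e-10). Ildr2 went the other way, with 126, 97.4 and 113 CPM in KO and 0, 0 and 0.0372 CPM in WT. It had 10070 counts in KO against 1 count in WT, a ratio of 8725, for which counting error alone leaves anything from 1566 to 344670 within the 95% limits (adjusted p = 9e-11).

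Among the other scaffolds and adaptors, 4 rose and 7 fell of 15 tested (73.3% called, against 57.4% of all genes). Amot, encoding angiomotin, which binds Patj and lies on chromosome X, fell from 169, 158 and 138 CPM in WT to 60.3, 44.1 and 50.0 CPM in KO, 3.01-fold (adjusted p = 2.1e-07). Its relative Amotl2 rose 2.06-fold, to 155, 128 and 168 CPM in KO from 68.9, 78.3 and 72.7 CPM in WT (adjusted p = 3.8e-06). Another relative, Amotl1, rose 4.62-fold, to 72.0, 47.5 and 74.2 CPM in KO from 12.1, 20.6 and 10.4 CPM in WT (adjusted p = 4.6e-06). Arhgef2, encoding GEF-H1, which cingulin holds at the junction, rose 2.06-fold, to 129, 128 and 140.3 CPM in KO from 64.2, 61.4 and 67.6 CPM in WT (adjusted p = 3.2e-07). In none of these genes did the genotypes overlap.

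The list of polarity complexes had 6 higher and 1 lower of 13 tested, 53.8% against 57.4% of all genes. Pard6g, a relative of Pard6b, rose 10.3-fold, to 16.3, 12.5 and 15.7 CPM in KO from 1.14, 1.26 and 1.93 CPM in WT (log2 fold change 3.36, SE 0.29, adjusted p = 1.5e-07). Prkci, the atypical protein kinase C bound by the PAR-6 proteins, fell 1.93-fold, from 320.3, 319.6 and 285 CPM in WT to 170.0, 141 and 168 CPM in KO (adjusted p = 1.9e-06). Llgl2, the basolateral antagonist of that kinase, rose 1.66-fold, to 229, 236 and 219 CPM in KO from 134, 137 and 140.2 CPM in WT (adjusted p = 2.4e-06). Each of these differences was without overlap.

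In the adherens junction, which lies below the tight junction, 3 genes rose and 4 fell of 9 tested (77.8% called, against 57.4% of all genes). The rise of Ctnna1 (log2 fold change 0.19) and the fall of Ctnnd1 (-0.22) were small. Both calls were lost in several alternatives, among them without KO replicate 1 (adjusted p = 0.077 and 0.11). Ctnnb1, encoding beta-catenin, was at 3967, 3396 and 3857 CPM in KO and at 1583, 1586 and 1482 CPM in WT, 2.41-fold higher (adjusted p = 7.5e-08); 14.6% of its exonic length overlaps Ulk4 on the other strand, which had 537 counts. The adhesion molecules Nectin3 and Nectin2 fell 6.96-fold and 2.26-fold (adjusted p = 1.1e-09 and 5.5e-08). Cdh1, encoding E-cadherin, was at a mean of 1088 CPM in KO and 1230 CPM in WT and did not pass the test; with upper-quartile scaling, with no filter on low counts and with limma voom it was called lower (log2 fold change -0.23, -0.19 and -0.18).

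**Figure D5:**
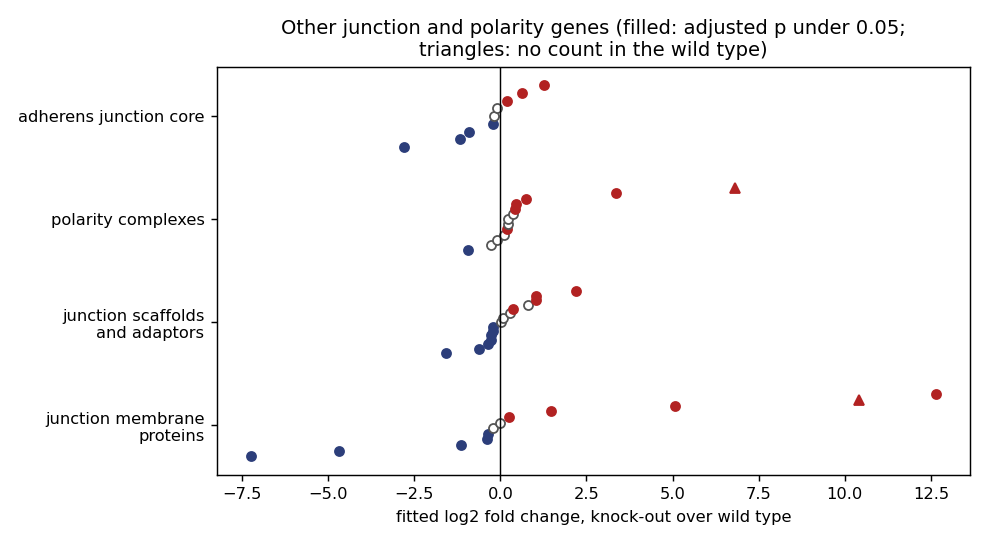
Log2 fold change of KO over WT for the tested genes of the 4 lists of other junction and polarity genes. Each point is a gene, filled symbols have an adjusted p under 0.05 and triangles are genes with no count in WT. The membrane proteins span the widest range, from Jaml at -7.23 up to Ildr2, and the adherens junction genes run from Nectin3 at -2.80 to Ctnnb1 at 1.27.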

How the data were processed

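Poly(A)-selected, stranded RNA libraries were sequenced from 3 KO and 3 WT samples. The authors deposited whole-number read counts per gene, 1 file per library; alignment used STAR and GRCm38, per the submitters' processing notes. Tool versions, the counter, its strand setting, the annotation and the treatment of multi-mapping reads were not given in the sources used here. Of 49585 gene IDs, 49326 were named from GENCODE vM21.

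Genes kept by filterByExpr (minimum count 10, minimum total 15) were fitted with TMM factors in edgeR 4.0.16 (R 4.3.3; glmQLFit in its current form, glmQLFTest), all 6 libraries and genotype alone, tested on simulated data. Limma 3.58.1 voom, DESeq2 1.42.0, other scalings and filters, a replicate block, leaving out each library, and leaving out chromosomes X, Y, 5 and the mitochondrial genome were alternatives; edgeR's legacy fit was added after seeing the data. Values are TMM-scaled CPM, mean ± SD over 3 libraries; intervals are 95%, and the floor of 3 counts covers counting error only. Depth of 20749747 to 31875723 counts puts that floor at 0.0336 CPM over the KO and 0.0388 CPM over the WT libraries.

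Genes named are claudins averaging 1 CPM or more in KO or WT, all 13 listed members, and from each of 4 lists the 3 with the smallest adjusted p; others were chosen after their values were seen. Members and lists were chosen with earlier results of these data known. Same-numbered KO and WT libraries did not deviate together (correlations over genes 0.11, -0.11 and -0.19), so numbers were not taken as pairs. Exons of Cldn22 lie wholly within Wwc2 on the other strand, 3.18% of the exonic length of Cldn3 overlaps Wbscr25, and 14.6% of that of Ctnnb1 overlaps Ulk4, both on the opposite strand. Also on the opposite strand, 36.2% of the exonic length of Jam3 overlaps Gm48796 (106 counts) and 43.6% of that of Lsr overlaps Gm4673 (61 counts). For Jaml and Ildr2 the opposite-strand shares were 12.8% (Gm10684, 7 counts) and 11.0% (5330438I03Rik, 0 counts). On the same strand, 61.2% of the exonic length of Ctnnd1 overlaps Gm28635, which had 0 counts. Protein sequences were not used here.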

Additional observations from a re-analysis of the deposited data

How the results depend on the processing

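The direction of every called member was kept under all alternatives run: of 351 single-gene comparisons for the tested members, 336 kept their side of the threshold, 13 lost the call, 2 gained it and 0 reversed. The 13 losses were in F11r, Cgn and Marveld2, and the gains were Tjp1 without KO replicate 2 and Cldn18 without WT replicate 2. Claudins called higher numbered 1 to 2 and junction and polarity members called lower 2 to 5 when 1 library was left out. At an adjusted p of 0.01, 2 of those members and 11 of the other junction genes were lower (46.5% of all genes called). Without chromosomes X, Y, 5 and the mitochondrial genome, 4 claudins were left to test, 0 higher and 3 lower (56.8% of all genes called). With a replicate block the claudins gave 1 higher and 7 lower, the members 4 and 4 (F11r lost, adjusted p = 0.074), the other genes 14 and 13, and all genes 7432 calls (54.0%); not every library correlated best with its own number. The log2 fold change of Tjp1, not called, was -0.01 without KO replicate 1. Scalings moved the median of all genes to at most -0.054. Genes under the floor of 3 counts cannot be ranked.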

Other observations

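Genes that carry the claudin name without being numbered claudins were counted too. Cldnd1, encoding a claudin-domain protein, was at 93.6, 89.6 and 91.2 CPM in KO and at 63.9, 67.4 and 68.7 CPM in WT, without overlap (log2 fold change 0.46, adjusted p = 3e-04, edgeR's quasi-likelihood test with Benjamini-Hochberg adjustment). Cldnd2 and the Cldn34 genes had no count in any library.

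Jam2, encoding JAM-B, a partner of JAM-C in endothelium, had 554 counts in KO and 0 in WT, at least 160.0-fold higher against a floor of 3 counts over the WT libraries. Crb2, a relative of Crb3, had 45 counts in KO and 0 in WT. Of the endothelial markers, Tek and Vwf fell, Tie1 had 27 counts in KO and 0 in WT, and Kdr and Emcn were at 0; their part was not tested. Both genes were chosen after their values were seen. Jam3, with which JAM-B pairs, had no count in any library.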
